A study of Homo sapiens with 2 samples.

Results

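Levels of 7 GABA-A receptor subunit genes, GABRA2, GABRA4, GABRA5, GABRB1, GABRB2, GABRG1 and GABRG3, were read in 2 split-seq libraries of human cerebral organoids, 1 of cells and 1 of nuclei. The genes were chosen by name from the 62704 genes of the deposited tables, which hold 19 GABA-A receptor subunit genes in all, and each of the 7 was present in both libraries. All organoids came from H9, an established human embryonic stem cell line, so that every value describes 1 genetic background. The cells were pooled from 3 kinds of organoid: CO, made with the STEMdiff kit and sampled at days 45, 55 and 70; DISS, dissociated at day 45, reaggregated and sampled at days 48, 55 and 70; and CONS, freed of Matrigel at day 13, constrained in 3% agarose and sampled at day 55. The nuclei came from a control experiment on day 45 CO, taken from whole organoids and after dissociation. The deposited metadata give all barcodes of a library 1 sample name, so each library was 1 sample, conditions, days and organoids cannot be told apart, and there is no replicate check. Hence no p-values are given, and all intervals are exact 95% intervals that cover counting error only.

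GABA-A receptors are pentameric chloride channels opened by the transmitter GABA, and most are built from alpha, beta and gamma subunits. The alpha and beta subunits form the GABA binding sites, while the gamma subunit takes part in anchoring the receptor at synapses and in its response to benzodiazepines. In the developing cortex chloride is high inside young cells, so that GABA depolarizes progenitors and immature neurons before it becomes inhibitory. The alpha2 subunit, encoded by GABRA2, is a main alpha subunit of the fetal forebrain. Receptors with alpha4 or alpha5, encoded by GABRA4 and GABRA5, are known for tonic currents outside synapses. GABRB1 and GABRB2 encode beta subunits, and GABRG1 and GABRG3 the less common gamma subunits.

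The members lie in 3 gene clusters of the GRCh38 genome (positions from GENCODE 44). GABRG1 (chr4:46035769-46124054, minus strand), GABRA2 (chr4:46243548-46475230, minus strand), GABRA4 (chr4:46918900-46993581, minus strand) and GABRB1 (chr4:46993723-47426447, plus strand) share 1.39 Mb of chromosome 4, where COX7B2 is the only other protein-coding gene. GABRB2 lies at chr5:161288429-161549044 on the minus strand. GABRA5 (chr15:26866911-26949208) and GABRG3 (chr15:26971181-27541984) follow each other on the plus strand of chromosome 15. Gene spans run from 74.7 kb in GABRA4 to 571 kb in GABRG3, and summed exon lengths from 2.95 kb in GABRB1 to 17.1 kb in GABRB2. GABRA5 and GABRB2 each overlap 1 protein-coding gene on the opposite strand. GABRA2 overlaps 2 genes, 1 of them on the opposite strand, and GABRG3 overlaps 8, and none of these is protein-coding. Whether the counting used strand is not given in the sources used here, so reads of these overlaps cannot be assigned with certainty.

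Upstream sequences were matched in RefSeq (GRCh38.p14) for 6 of the 7 members and cut where GENCODE 44 places an exon. Those of GABRG3, GABRA4 and GABRB1 are shown, 5′ to 3′ on the strand of the gene, because GABRG3 held most counts of the set in progenitor-like barcodes and because GABRA4 and GABRB1 face away from each other across a short gap and were both higher in neuronal nuclei. Capitals mark the motifs found.
GABRG3, chr15:26970931-26971180, plus strand: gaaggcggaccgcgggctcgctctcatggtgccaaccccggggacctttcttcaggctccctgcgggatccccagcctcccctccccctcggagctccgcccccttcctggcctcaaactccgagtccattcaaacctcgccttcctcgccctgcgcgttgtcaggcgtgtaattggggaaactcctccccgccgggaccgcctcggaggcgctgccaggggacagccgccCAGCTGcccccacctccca
GABRA4, chr4:46993582-46993722, minus strand: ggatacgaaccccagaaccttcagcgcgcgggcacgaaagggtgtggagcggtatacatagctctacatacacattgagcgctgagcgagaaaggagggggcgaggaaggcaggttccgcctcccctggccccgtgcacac
GABRB1, chr4:47031317-47031550, plus strand: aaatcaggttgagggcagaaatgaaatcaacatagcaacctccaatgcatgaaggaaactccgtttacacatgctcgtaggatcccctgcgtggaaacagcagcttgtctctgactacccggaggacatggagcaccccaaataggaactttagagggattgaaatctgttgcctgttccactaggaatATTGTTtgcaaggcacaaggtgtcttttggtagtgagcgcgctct
The GABRA4 sequence is the whole interval between the annotated starts of GABRA4 and GABRB1, and the start that RefSeq gives for GABRB1 lies downstream of the earliest one in GENCODE. Each sequence was searched on both strands for the E-box motif CAGATG (the other strand then reads CATCTG), for a second E-box, the palindrome CAGCTG, and for the core that SOX factors recognise, AACAAT, whose other strand reads ATTGTT. E-boxes are bound by proneural factors. The GABRG3 sequence held 1 CAGCTG, that of GABRB1 held 1 ATTGTT and that of GABRA4 held none of them. Among 35116 RefSeq windows of 250 bases, 12.2% held CAGATG, 14% CAGCTG and 8.98% AACAAT in either orientation. These windows were not cut at exons, whereas the sequences of GABRA4 and GABRB1 had only 141 and 234 bases left. A shorter sequence has fewer places for a motif. G and C made up 69.6% of the GABRG3 bases, 61.7% of those of GABRA4 and 47.4% of those of GABRB1, against a median of 58.0% over all windows.

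Barcodes that passed limits of over 500 genes, over 1000 transcripts and no more than 20% mitochondrial transcripts were kept, 20178 of 1303455 in the library of cells and 14228 of 197446 in that of nuclei. Median depth was 2615 transcripts per kept cell and 3890 per kept nucleus, and 687 of the 20178 kept cells (3.40%) carry well combinations that also occur among the nuclei. Clusters built without any of the 19 subunit genes were named from marker genes. Progenitor-like barcodes numbered 6893 cells and 6175 nuclei, and excitatory neuron-like barcodes 4775 cells and 2589 nuclei. Another 6699 cells (33.2%) and 4237 nuclei (29.8%) were left unnamed. The summed level of 11 excitatory neuron markers was 15.8 counts per 10000 transcripts in excitatory neuron-like nuclei and 2.33 in progenitor-like nuclei, against 13.7 and 4.95 in cells. Radial glia markers gave 43.0 in progenitor-like and 10.7 in excitatory neuron-like nuclei, but 40.6 and 21.9 in cells, so the classes were separated less clearly in the cells. No cluster met the rule for inhibitory neurons. In place of one, barcodes with at least 2 of GAD1, GAD2, DLX1, DLX2, DLX5, DLX6, DLX6-AS1 and SLC32A1 detected are described as GAD/DLX-positive, a definition made after the values were seen. There were 142 such nuclei and 146 such cells. The 146 cells had a median depth of 49801 transcripts and were spread over 15 clusters, and whether they were single cells was not tested.

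In nuclei, the alpha and beta members were higher in excitatory neuron-like than in progenitor-like barcodes, GABRG1 was lower and GABRG3 was nearly level. A level is the sum of a gene's counts in a class per 10000 transcripts of that class, and a member was called at a ratio of at least 2. By this rule 5 of the 7 members were higher (12.9% of all genes tested passed in this direction) and 1 was lower (19.8% of all genes). The count of 5 rests in part on 1 of the 2 excitatory neuron-like clusters, described further on as cluster 1, and fell to 1 when that cluster lost its name after the highest doublet scores were removed and the nuclei reclustered. The median log2 ratio of the members was 1.48, against -0.20 over all genes tested.

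GABRA2 was the member with the largest ratio in nuclei. Its level was 1.53 and 1.69 in the 2 sub-libraries of excitatory neuron-like nuclei and 0.0996 and 0.107 in those of progenitor-like nuclei, so that the sub-libraries of the classes lay far apart. The pooled levels of 1.60 and 0.103 gave a 15.5-fold ratio (interval 13.7 to 17.6). GABRB1 followed, with 1.14 and 1.22 in excitatory neuron-like against 0.0940 and 0.101 in progenitor-like sub-libraries and a 12.1-fold ratio (10.6 to 13.8). Of its 1572 counts in excitatory neuron-like nuclei 1486 were in cluster 1, and cluster 0 stood at 0.159, above the progenitor-like 0.0977 by less than 2-fold. GABRB2 was already present in progenitor-like nuclei. Its sub-library levels were 1.39 and 1.41 against 0.527 and 0.552, a 2.61-fold ratio (2.44 to 2.79). This difference too was carried by cluster 1, at 2.03, since the 1275 nuclei of cluster 0 had a GABRB2 level of 0.485, below the progenitor-like 0.538.

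The remaining alpha members were scarce, and their ratios rest on few counts. GABRA4 had 78 counts in excitatory neuron-like and 15 in progenitor-like nuclei, levels of 0.0585 and 0.00543 and a 10.8-fold ratio (6.15 to 20.2). GABRA5 had 39 and 29 counts, levels of 0.0292 and 0.0105 and a 2.79-fold ratio (1.68 to 4.67). Both lay in every excitatory sub-library above every progenitor one.

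The gamma members went another way. GABRG1 was 2.11-fold lower in excitatory neuron-like nuclei, at 0.0142 against 0.0300, from 19 and 83 counts (ratio 0.474, 0.272 to 0.788). GABRG3 was at 3.08 and 3.21 in the excitatory sub-libraries and at 3.06 and 3.10 in the progenitor ones, and its ratio of 1.02 had an interval of 0.984 to 1.06. These values overlapped, and GABRG3 was the only member without a difference beyond counting error in nuclei.

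**Figure D1:**
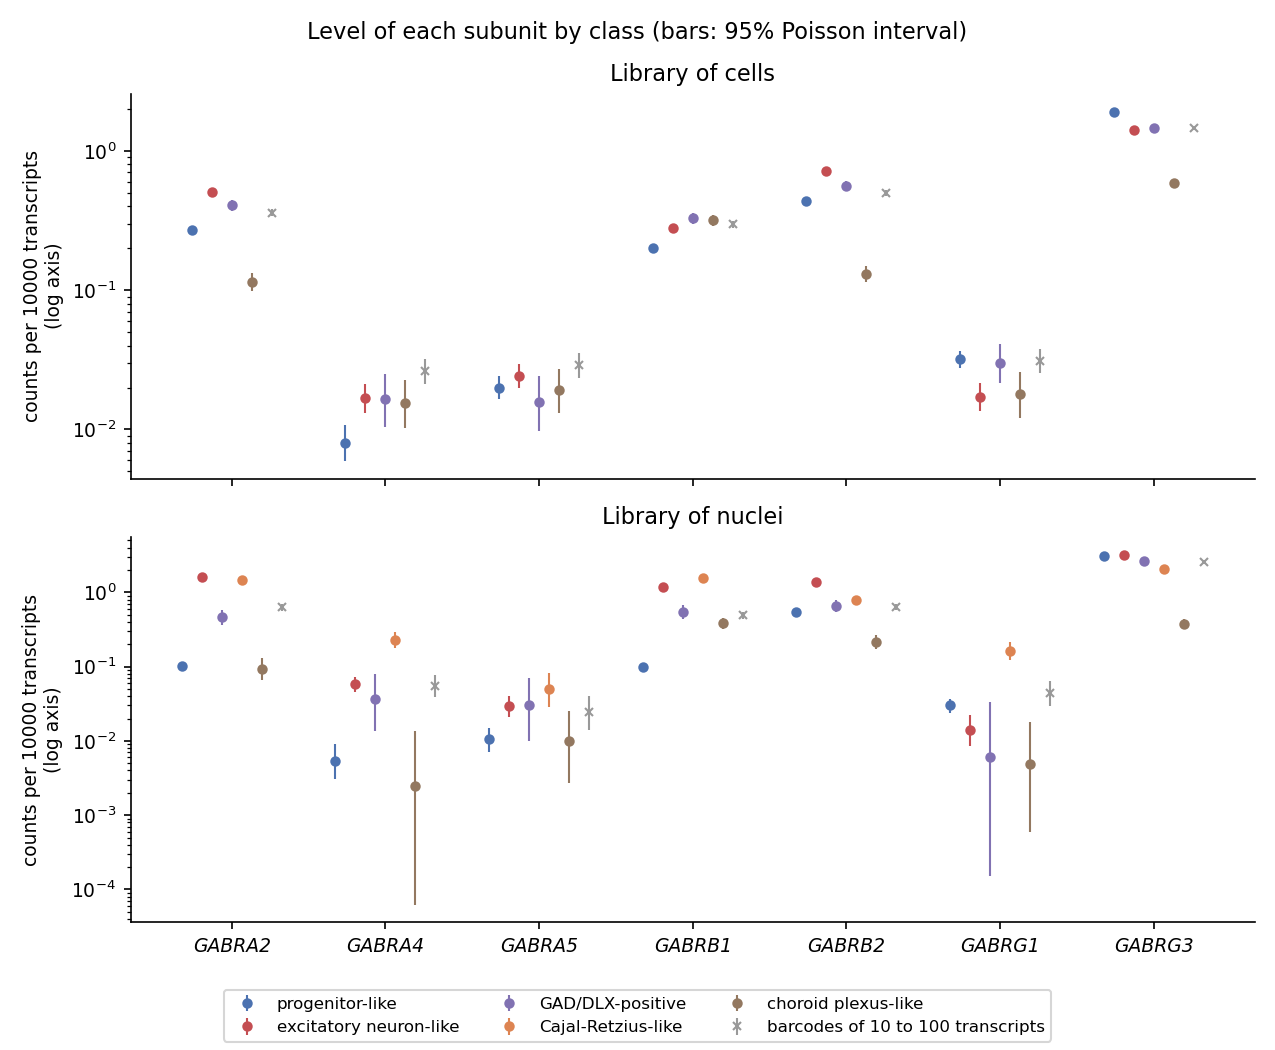
Counts per 10000 transcripts (log axis) of each of the 7 subunit genes, by class, in the library of cells (top) and of nuclei (bottom); points are pooled levels, bars exact 95% Poisson intervals, and crosses barcodes of 10 to 100 transcripts. In nuclei GABRA2 stood at 1.60 in excitatory neuron-like and 0.103 in progenitor-like barcodes, while GABRG3 stood at 3.15 and 3.08.

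For GABRA2, GABRB1 and GABRB2 the order between the classes held within first-round wells of the nuclei, whose condition is not known and which no label names as separate samples. In the 12 wells, each with at least 50 nuclei of both classes, GABRA2 ran from 0.926 to 2.00 (median 1.60) in excitatory neuron-like and from 0.0605 to 0.165 (median 0.126) in progenitor-like nuclei. GABRB1 ran from 0.506 to 1.77 (median 1.19) and from 0.0264 to 0.183 (median 0.0998). GABRB2 ran from 0.704 to 2.33 (median 1.35) and from 0.132 to 0.698 (median 0.476). For these 3 genes the wells of the classes did not overlap. GABRA4 and GABRA5 were each higher in excitatory neuron-like nuclei in 9 of the 12 wells and tied in 1, and GABRG1 was higher in 2. GABRG3 was higher in 5 of the 12 wells, at 2.27 to 4.40 (median 3.49) against 1.21 to 5.67 (median 3.98), so its wells varied more within a class than between classes.

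In pooled cells GABRA2, GABRA4, GABRB1 and GABRB2 were higher in excitatory neuron-like barcodes too, with much smaller ratios. Only GABRA4 passed 2-fold (1 of 7, where 10.5% of all genes were higher), and no member was lower by that much (4.37% of all genes). The GABRA4 call rested on cluster 16 of the cells, at 0.0332, since clusters 2 and 3 were at 0.0123 and 0.00759. Of the 1044 cells of cluster 16, 620 (59.4%) became unnamed when the highest doublet scores were removed before clustering. Between 0 and 3 members passed under other settings. The members' median log2 ratio was 0.47, against 0.13 over all genes. GABRA2 was at 0.377 to 0.653 (median 0.509) over the 8 sub-libraries of excitatory neuron-like cells and at 0.233 to 0.348 (median 0.262) over those of progenitor-like cells, groups that did not overlap, with a 1.87-fold ratio (1.75 to 2.00). The size of this ratio varied with depth, from levels of 0.387 against 0.313 in barcodes of at most 2000 transcripts to 0.529 against 0.172 in those of more than 5000 up to 20000. GABRB2 did not overlap either, at 0.596 to 0.818 (median 0.733) against 0.383 to 0.489 (median 0.438), with a 1.64-fold ratio (1.56 to 1.73). GABRB1 overlapped, at 0.231 to 0.356 (median 0.265) against 0.144 to 0.256 (median 0.195), with a ratio of 1.39 (1.28 to 1.51). The excitatory neuron-like clusters differed. Cluster 3, with 2513 cells at a median depth of 1724 and 40.7% from 1 well, had GABRA2 at 0.244 and GABRB1 at 0.198. These were not above the pooled progenitor-like levels of 0.269 and 0.199. The highest cluster levels were 0.805 for GABRA2 (cluster 2) and 0.400 for GABRB1 (cluster 16). GABRB2 was at 0.571 in cluster 3. GABRA4 stood at 0.0168 against 0.00804, a 2.09-fold ratio (1.42 to 3.08), and GABRA5 at 0.0243 against 0.0200, where the interval of the ratio (0.924 to 1.60) included 1. GABRG1 was 1.84-fold lower in excitatory neuron-like cells when barcodes were pooled, at 0.0172 against 0.0318, but not as a mean over barcodes, at 0.0304 against 0.0315.

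GABRG3 was lower in excitatory neuron-like than in progenitor-like cells when barcodes were pooled, and higher when they were compared within wells. The pooled levels were 1.40 and 1.89, a ratio of 0.742 (0.719 to 0.766). Among excitatory neuron-like clusters GABRG3 ran from 0.570 in cluster 3 to 2.29 in cluster 2, against 1.39 to 2.27 over the progenitor-like clusters. The pooled decrease was thus not seen in every cluster. In 10 of the 11 wells with at least 50 cells of each class the excitatory neuron-like cells had the higher GABRG3 level, at 0.380 to 3.13 (median 1.65) against 0.188 to 2.05 (median 0.719). GABRA2 was higher in excitatory neuron-like cells in all 11 of these wells (medians 0.426 and 0.151), GABRB2 in 9 and GABRB1 in 7. GABRA4 was higher in 7 and tied in 2, and GABRA5 in 5 and tied in 1, with a lower median in excitatory neuron-like (0.0133) than in progenitor-like cells (0.0182). GABRG1 was higher in 5 of them and tied in 1, with medians of 0.0137 and 0.0123, so its pooled difference was not seen within wells. Which wells held CO, DISS or CONS is not known, so well and condition cannot be told apart in these values.

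**Figure D2:**
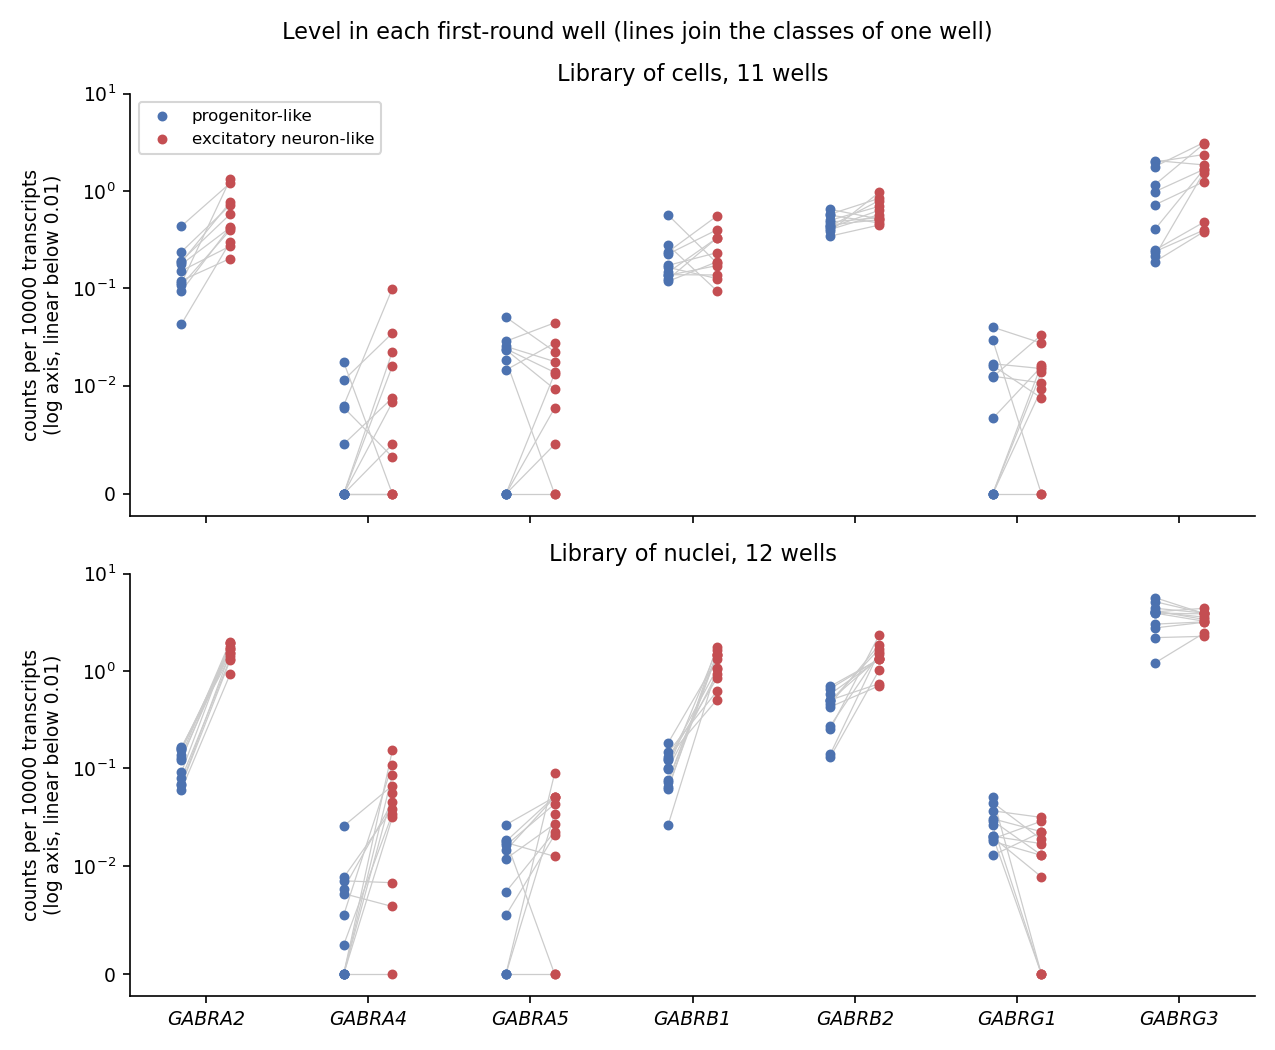
Counts per 10000 transcripts (log axis, linear below 0.01) of each subunit gene in progenitor-like and excitatory neuron-like barcodes of single first-round wells, 11 of the cells (top) and 12 of the nuclei (bottom), with lines joining the classes of a well. For GABRA2, GABRB1 and GABRB2 all 12 lines of the nuclei go up, while those of GABRG3 go up in 5 of 12 wells of the nuclei and in 10 of 11 wells of the cells.

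Barcodes of 10 to 100 transcripts, taken as the background of free RNA, held the members too. In nuclei their GABRA2 level was 0.626, above that of progenitor-like nuclei (0.103) and below that of excitatory neuron-like nuclei (1.60), and GABRB1 was placed likewise at 0.492. In cells the background had 0.360 for GABRA2, 0.297 for GABRB1 and 0.499 for GABRB2, between the progenitor-like and excitatory neuron-like levels for GABRA2 and GABRB2 and above both for GABRB1. GABRA4 in the background of the cells (0.0262) also exceeded both classes. In the background of the nuclei GABRA4 was at 0.0550, next to its excitatory neuron-like level of 0.0585, and GABRG1 at 0.0443, above both classes. The part of free RNA in the smaller ratios of the cells was not tested. With depth, GABRA2 of progenitor-like nuclei stayed at 0.120, 0.106 and 0.0999 in barcodes of at most 2000, of more than 2000 up to 5000 and of more than 5000 up to 20000 transcripts, while excitatory neuron-like nuclei gave 0.856, 1.55 and 1.66.

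At equal depth the shares of barcodes with a count of GABRA2, GABRB1, GABRB2 and GABRG3 in nuclei stood in the same order as their levels. After each barcode was thinned to 1000 transcripts, GABRA2 was detected in 13.0% of excitatory neuron-like and 0.955% of progenitor-like nuclei, and in 0.573% of choroid plexus-like nuclei, a secretory epithelium set beside them. GABRB1 was detected in 6.88% and 1.05%, and GABRB2 in 10.4% and 4.15%. GABRG3 was detected in 20.4% and 20.0%, against 2.58% of choroid plexus-like nuclei. Without thinning GABRA2 was detected in 37.9% of excitatory neuron-like and 3.63% of progenitor-like nuclei, at median depths of 4294 and 3830 transcripts (choroid plexus-like 10002). In thinned cells the shares of GABRA2 were 4.02% and 2.58%, and those of GABRG3 10.8% and 15.7%. The share of GABRG1 was 0.356% in excitatory neuron-like and 0.305% in progenitor-like cells, the reverse of its pooled levels, with overlapping intervals (0.208 to 0.569 and 0.189 to 0.465).

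The pooled mix of the 7 members in progenitor-like barcodes was led by GABRG3. Of 10693 counts of the members in progenitor-like nuclei, GABRG3 held 79.7% (78.9 to 80.5), GABRB2 13.9%, GABRA2 2.67%, GABRB1 2.53%, GABRG1 0.776%, GABRA5 0.271% and GABRA4 0.140%. Counts favour long genes, so shares were also set per length. Per kb of exon GABRG3 held 75.6%, GABRB1 10.3% and GABRB2 9.77%, and per kb of gene span GABRG3 held 62.2% and GABRB2 23.8%, so GABRG3 came first on every scale. In pooled progenitor-like cells GABRG3 held 66.2% of the counts and 55.4% per kb of exon. Its lead was not seen in every well of the cells. In wells B2, B3, D2 and D3 GABRB2 was at 0.564, 0.344, 0.479 and 0.646 and GABRG3 at 0.188, 0.215, 0.247 and 0.238. In the rest of the 11 wells compared GABRG3 was above GABRB2.

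The excitatory neuron-like mix was more even, and its leading member depended on the scale. Of 9919 counts of the members in these nuclei, GABRG3 held 42.4% (41.4 to 43.3), GABRA2 21.6%, GABRB2 18.9%, GABRB1 15.8%, GABRA4 0.786%, GABRA5 0.393% and GABRG1 0.192%. Per kb of exon GABRB1 came first with 47.6%, followed by GABRG3 with 29.6% and GABRA2 with 11.3%. Per kb of gene span GABRA2 came first with 31.7%, followed by GABRG3 with 25.3% and GABRB2 with 24.7%. These shares pool the 2 clusters described further on. The GABRB1 lead per kb of exon rested on cluster 1, which held 1486 of the 1572 GABRB1 counts. In cluster 0 GABRB1 had 86 counts, GABRA2 810 and GABRG3 1577. In cells GABRG3 held 47.4% of the counts, GABRB2 24.3%, GABRA2 17.0% and GABRB1 9.33%. Together the 7 members gave 7.44 counts per 10000 transcripts in excitatory neuron-like and 3.87 in progenitor-like nuclei, and 2.97 and 2.86 in cells.

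These mixes leave out the 12 other subunit genes. The members held 79.4% of the counts of all 19 subunit genes in progenitor-like nuclei, but 54.1% in excitatory neuron-like nuclei (63.0% and 48.4% in cells). Of the others, 5 of the 11 with enough counts in nuclei were at least 2-fold higher in excitatory neuron-like barcodes (12.9% of all genes) and 2 were lower (19.8%). In cells 5 of 12 were higher (10.5% of all genes) and 1 was lower (4.37%).

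**Figure D3:**
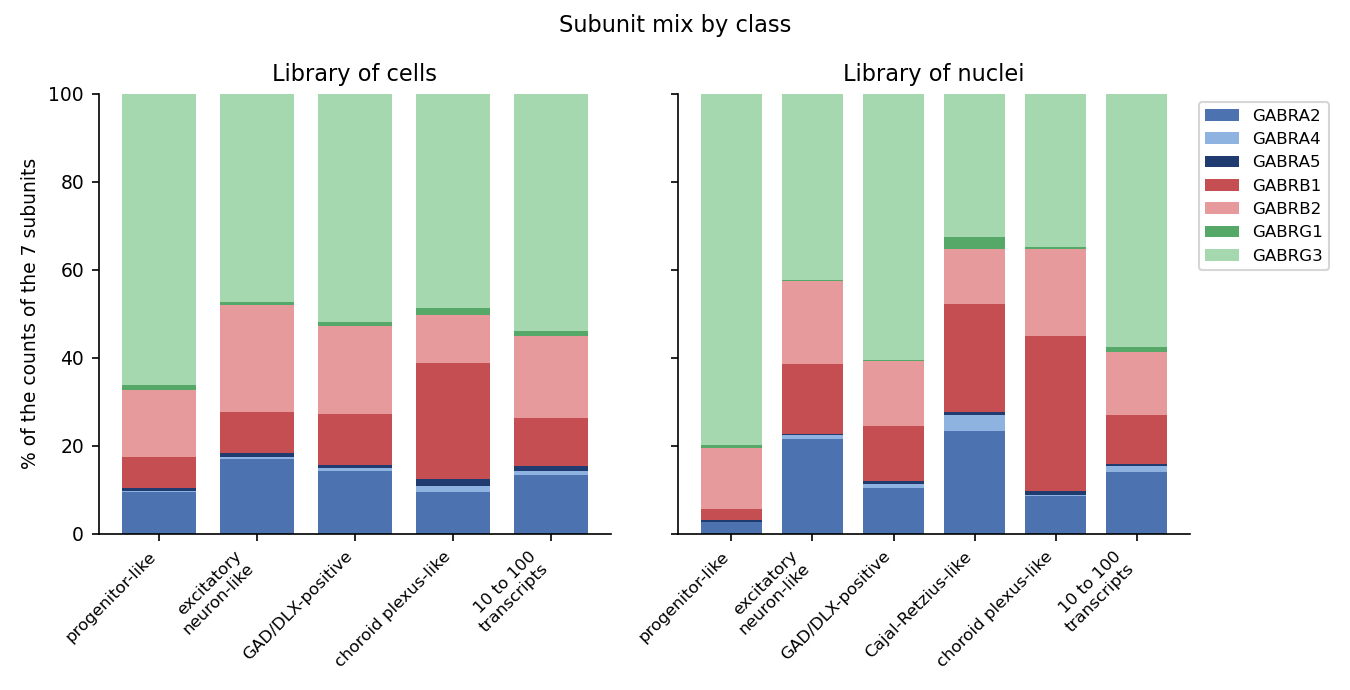
Share (%) of the counts of the 7 subunit genes held by each gene, by class, in cells (left) and nuclei (right), with barcodes of 10 to 100 transcripts as the last bar. GABRG3 took 79.7% of the counts in progenitor-like and 42.4% in excitatory neuron-like nuclei. In cells the GAD/DLX-positive bar (GABRG3 51.7%) was close to that of the barcodes of 10 to 100 transcripts (53.8%).

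GAD/DLX-positive nuclei, used here in place of an inhibitory neuron cluster, had a GABRG3-led mix as well. Of 726 counts GABRG3 held 60.6% (56.9 to 64.2), GABRB2 14.9%, GABRB1 12.4% and GABRA2 10.5%. Per kb of exon GABRG3 held 44.4% and GABRB1 39.1%, and per kb of gene span GABRG3 held 41.1% and GABRB2 22.1%. GABRA2 was at 0.463, 4.47-fold above progenitor-like nuclei and at 0.289 of the excitatory neuron-like level. GABRB1 was at 0.548, 5.61-fold above progenitor-like nuclei and at 0.465 of the excitatory level. The background level given earlier was above this GABRA2 level and slightly below this GABRB1 level. Against progenitor-like nuclei 4 members were higher (24.7% of all genes) and 1 was lower (6.55%), of which GABRA4, GABRA5 and GABRG1 rest on 6, 5 and 1 counts. Against excitatory neuron-like nuclei none was higher (25.8% of all genes) and 4 were lower (6.54%), of which GABRG1 rests on 1 count. The count of 4 fell to 1 or 2 under 7 other settings, and the count of 0 became 3 with classes from each barcode's own markers and 2 without the highest doublet scores. The shares of 24.7% and 25.8% can include genes without a count in this small class. Such genes were set to 3 counts, which passes 2-fold where the larger class had few counts. How many there were was not counted, so the members cannot be read against these shares.

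The 142 nuclei were not a pure group. Of these, 107 (75.4%) sat in the Cajal-Retzius-like cluster, and their summed markers were 8.59 for inhibitory neurons, 18.6 for radial glia, 14.2 for choroid plexus, 12.4 for dividing cells, 6.44 for Cajal-Retzius neurons and 4.88 for excitatory neurons, with LHX6 at 0. The 35 nuclei outside that cluster were spread over 8 clusters at a median depth of 18355 transcripts and held 317 of the 440 GABRG3 counts. In them GABRG3 held 66.6% of the members' counts and GABRB2 10.9%, whereas in the 107 nuclei inside the cluster, at a median depth of 4144, GABRG3 held 49.2% and GABRB2 22.4%. The GABRB2 level was 0.476 (0.356 to 0.625) outside and 1.02 (0.768 to 1.32) inside, and that of GABRA2 0.394 (0.285 to 0.531) and 0.599 (0.412 to 0.841). At a finer clustering a cluster of 170 nuclei led by GAD1 and GAD2 appeared, of which 169 came from the Cajal-Retzius-like cluster and 69 were among the 142. Its GABRG3 level was 0.584 (36 counts), that of GABRB2 0.357 (22), of GABRA2 0.341 (21) and of GABRB1 0.114 (7), and GABRA5 had no count (upper Poisson limit 0.0599). Both selections had GABRG3 as the member with most counts, at levels of 2.68 (2.43 to 2.94) and 0.584 (0.409 to 0.809) whose intervals did not overlap.

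In the 146 GAD/DLX-positive cells GABRG3 held 51.7% of the counts, GABRB2 20.0%, GABRA2 14.4% and GABRB1 11.6%. Only GABRA4 was at least 2-fold above progenitor-like cells (2.07-fold, 1 of 7, where 9.35% of all genes were higher), and none was lower (3.37%). Against excitatory neuron-like cells no member was higher (5.12% of all genes) or lower (4.95%). These counts depended on the deepest barcodes, since without those over 20000 transcripts 5 members were above progenitor-like and 2 above excitatory neuron-like cells, and with classes from each barcode's own markers 5 and 4. The barcodes of 10 to 100 transcripts held 53.8%, 18.5%, 13.4% and 11.0% for the same 4 genes, and the inhibitory markers summed to 1.62 in these cells, equal to the 1.62 of progenitor-like cells.

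Cajal-Retzius-like nuclei, named for the early reelin-secreting neurons of the marginal zone, had the highest GABRA4 and GABRG1 levels of the named classes in nuclei. Among these 736 nuclei GABRA4 was at 0.204 and 0.253 in the sub-libraries, 42.6-fold above progenitor-like and 3.95-fold above excitatory neuron-like nuclei. GABRG1 was at 0.0913 and 0.219, 5.40-fold above progenitor-like and 11.4-fold above excitatory neuron-like nuclei. The sub-libraries of both genes lay above those of the other 2 classes. GABRA2 (1.46) and GABRB1 (1.54) were 14.1-fold and 15.7-fold above progenitor-like nuclei, and GABRA5 was 4.76-fold above. In all, 5 members were higher than in progenitor-like nuclei (20.3% of all genes) and none lower (13.9%), while 2 were higher than in excitatory neuron-like nuclei (16.9%) and none lower (6.90%). Against Cajal-Retzius-like nuclei, none of the members was higher in GAD/DLX-positive nuclei (11.2%) and 4 were lower (11.1%). Of the GAD/DLX-positive nuclei 107 came from the same cluster, so these groups are largely parts of 1 cluster split by marker detection. The GABRA4 and GABRG1 calls rest on 6 and 1 counts in GAD/DLX-positive nuclei. Per kb of exon GABRB1 held 59.7% of the Cajal-Retzius-like mix, and per kb of gene span GABRA2 held 28.7%.

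Choroid plexus-like barcodes had the lowest summed level of the members among the named classes of both libraries, 1.09 per 10000 in nuclei and 1.20 in cells. GABRB1 was above its progenitor-like level in both libraries, at 0.382 (0.324 to 0.447) in nuclei and 0.317 (0.291 to 0.345) in cells, against 0.0977 and 0.199. GABRA4 was above its progenitor-like level in cells only, at 0.0156 (26 counts) against 0.00804. The background levels given earlier were above the choroid plexus-like ones for GABRB1 in nuclei and for GABRA4 in cells. For GABRB1 in cells the background lay within the interval. The part of free RNA in these values was not tested. GABRB1 and GABRG3 held like shares of the members' counts in these nuclei, 35.2% (30.8 to 39.9) and 34.8% (30.3 to 39.4). Per kb of exon GABRB1 came first in nuclei (71.6%) and in cells (60.6%), but in cells GABRG3 led on counts (48.8% against 26.4%) and per kb of gene span (30.2% against 21.5%). The members held 29.3% of all subunit counts in the nuclei and 41.2% in the cells.

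When barcodes were pooled, dividing progenitor-like ones gave GABRG3 a larger share of the mix than non-dividing ones, by more in cells than in nuclei. GABRG3 held 81.2% of the members' counts in dividing and 78.4% in non-dividing nuclei. Its level there was 3.12 and 3.06, with a ratio interval that included 1 (0.977 to 1.06). The log2 ratios of the sub-libraries ran from -0.16 to 0.25. Whether the shares keep this order in single clusters of nuclei is not given here. In cells it held 73.7% (72.5 to 74.9) and 62.6% (61.7 to 63.5), while GABRA2 held 6.14% and 11.0% and GABRB1 4.80% and 8.02%. In pooled cells GABRA2 and GABRB1 were at 0.510 and 0.546 of the non-dividing level in dividing progenitors. The direction of GABRA2 turned as a mean over barcodes (0.287 in dividing, 0.227 in non-dividing) and in thinned detection (3.02% and 2.09%). Among non-dividing clusters GABRA2 was at 0.521 in cluster 17, whose 466 cells had a median depth of 23881 transcripts, and at 0.166 and 0.244 in clusters 1 and 13. Among dividing clusters it was at 0.461 in cluster 10 and at 0.137 and 0.0617 in clusters 4 and 8. The 1790 cells of cluster 10 had a median depth of 1436 transcripts, and 47.9% of them came from 1 well. GABRA4, at 0.389 from 8 and 39 counts, was the only member called lower (8.61% of all genes), while none was higher (2.88%). In nuclei the same ratios were 0.650 for GABRA2 and 0.712 for GABRB1, and GABRA4 passed 2-fold lower (10.8% of all genes) on 3 and 12 counts, with an interval that included 1 (0.0523 to 1.07) and opposite signs in the sub-libraries. None was higher (4.35%). Among the 6 progenitor-like clusters of nuclei GABRG3 ran from 1.22 to 4.00 and GABRA2 from 0.0501 to 0.144, so GABRG3 varied by cluster although it hardly differed between the classes.

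The excitatory neuron-like nuclei fell into 2 clusters that shared GABRA2 and GABRG3 but not the beta members. Cluster 1, with 1314 nuclei, was led by OPCML, CDH7, GRIK3 and SPHKAP, and cluster 0, with 1275 nuclei, by PRDM8, KCNQ5, UNC5A and BCHE. GABRB1 was at 1.87 in cluster 1 and 0.159 in cluster 0, an 11.8-fold ratio (9.45 to 14.8). GABRB2 was at 2.03 and 0.485, a 4.18-fold ratio (3.67 to 4.78). GABRA4 (5.21-fold, 2.59 to 11.9) and GABRA5 (3.74-fold, 1.55 to 10.9) were also higher in cluster 1, whereas GABRA2 (1.67 in cluster 1, 1.12-fold, 1.02 to 1.22) and GABRG3 (3.31 and 2.92, 1.13-fold, 1.06 to 1.21) were close to level. In cluster 0 GABRB1 was nearer to its progenitor-like level of 0.0977 than to its level in cluster 1. In the same cluster GABRB2 (0.485) was below and GABRA5 (0.0111) at its progenitor-like level, while GABRA2 in the same nuclei stood far above its own.

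The split of the beta members was seen in each well. In the 12 wells GABRB1 ran from 0.925 to 2.98 (median 1.75) in cluster 1 and from 0.0695 to 0.667 (median 0.164) in cluster 0. GABRB2 ran from 1.04 to 3.07 (median 2.17) and from 0.0993 to 0.857 (median 0.523). Neither gene overlapped between the clusters, and both were higher in cluster 1 in 12 of 12 wells, against 9 wells for GABRA2 and for GABRG3, 8 for GABRA4 and for GABRA5 and 6 for GABRG1. Among other genes of GABA signalling, GABBR2 was 3.03-fold higher in cluster 1 (4.04 against 1.33), and the scaffold gene GPHN was level (0.977). When the nuclei scored most like doublets were removed before clustering, 1276 nuclei of the recorded cluster 1 (96.9%) fell in an unnamed cluster, so its name depends on that choice.

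**Figure D4:**
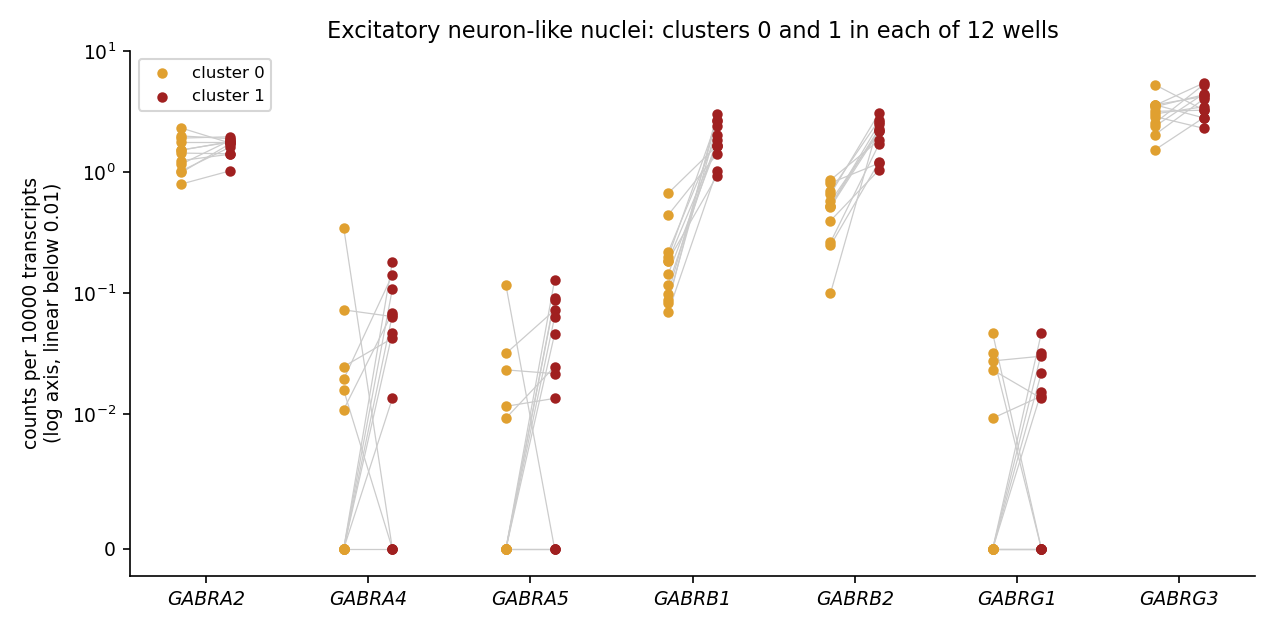
Counts per 10000 transcripts (log axis, linear below 0.01) of each subunit gene in clusters 0 and 1 of the excitatory neuron-like nuclei in each of 12 first-round wells, with lines joining the clusters of a well. GABRB1 (medians 0.164 and 1.75) and GABRB2 (0.523 and 2.17) were higher in cluster 1 in 12 of 12 wells, GABRA2 and GABRG3 in 9.

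Of 19 other genes of GABA signalling, several of those tied to synapses and inhibition were also higher in excitatory neuron-like nuclei. Of 18 with enough counts, 6 were at least 2-fold higher in excitatory neuron-like than in progenitor-like nuclei (12.9% of all genes) and 2 were lower (19.8%). The median log2 ratio of the 18 was 0.10, against -0.20 over all genes tested. GABBR2, a subunit of the metabotropic GABA-B receptor, was at 2.94 against 0.0470, 62.6-fold higher. LHFPL4, an auxiliary protein of synaptic GABA-A receptors, was at 0.954 against 0.0213, 44.7-fold higher, and PLCL1, which binds the receptors and takes part in their trafficking, was 12.2-fold higher. SLC12A5, the chloride exporter KCC2, was 6.06-fold higher, SHISA7, another auxiliary protein, 4.29-fold and the GABA transporter gene SLC6A11 2.06-fold. Between clusters 1 and 0 these genes differed less than GABRB1 and GABRB2 did. The ratios were 3.03 for GABBR2, 1.76 for PLCL1, 1.63 for SLC12A5, 1.35 for SLC6A11, 1.11 for LHFPL4 and 1.08 for SHISA7. ABAT, which breaks down GABA, was 2.06-fold lower. GPHN, the scaffold at inhibitory synapses, was at 9.22 and 7.24, and SLC12A2, the chloride importer NKCC1, at 0.416 and 0.787, and neither reached 2-fold. In cells GABBR2 (2.92-fold) and LHFPL4 (2.78-fold) were the 2 of 19 that passed, a share equal to the 10.5% of all genes, and none was lower (4.37%).

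**Figure D5:**
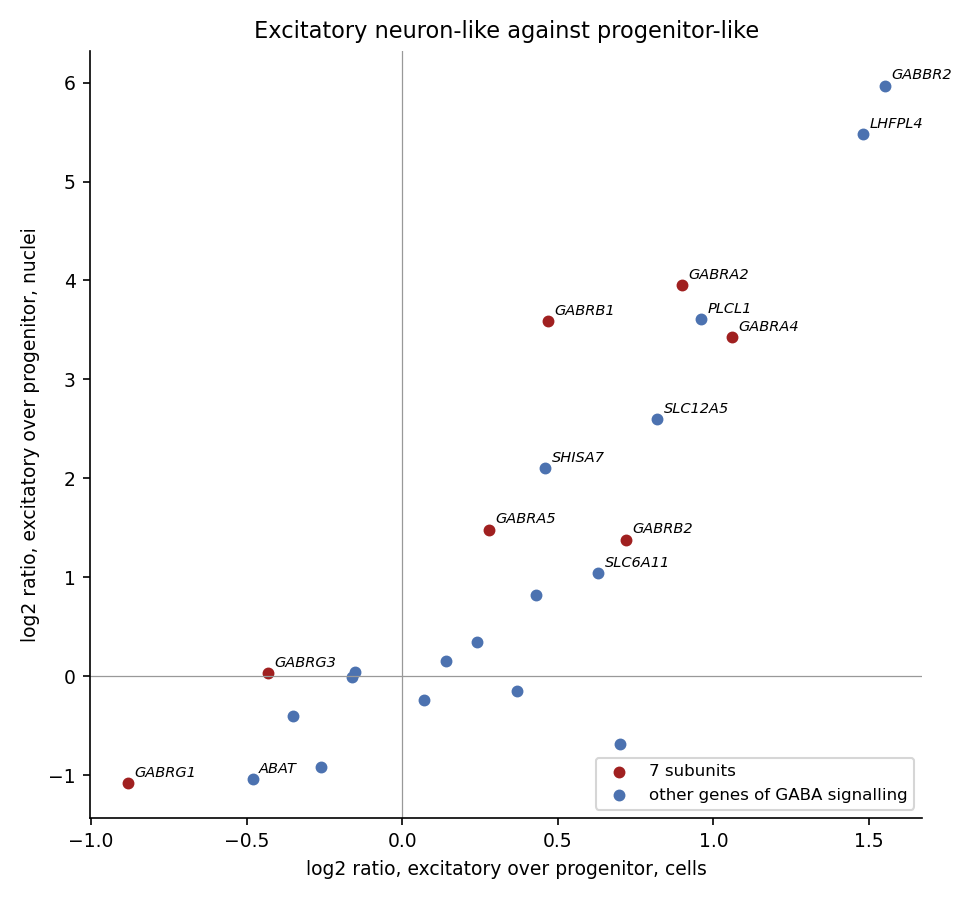
Log2 ratio of excitatory neuron-like to progenitor-like level in cells (horizontal axis) and nuclei (vertical axis) for the 7 subunit genes (red) and for other genes of GABA signalling (blue), with subunits and plotted genes past 2-fold in nuclei named. GABRA2, GABRB1 and GABRA4 sit between 3.43 and 3.95 in nuclei but between 0.47 and 1.06 in cells, and GABRG3 sits at 0.03 and -0.43.

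Few barcodes held a full set of alpha, beta and gamma members. After thinning to 1000 transcripts, 17 of 2589 excitatory neuron-like nuclei (0.657%, exact binomial interval 0.383 to 1.05) and 10 of 736 Cajal-Retzius-like nuclei (1.36%, 0.653 to 2.48) had at least 1 count of each kind. The count was 0 of 6175 in progenitor-like nuclei, which allows a share of up to 0.0486% if 3 barcodes are taken as the limit of a count of 0, and 0 of 142 in GAD/DLX-positive nuclei, which by the same limit allows up to 2.11%. In 2000 draws of 1000 transcripts from the background of the nuclei, 0.1% held all 3 kinds. Among thinned cells 7 of 20178 (0.0347%) did. At full depth the shares were 11.4% of excitatory neuron-like and 0.648% of progenitor-like nuclei, so the thinned shares are limited by depth and do not count receptors.

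Across clusters GABRA2 and the beta members had, on the mean over both libraries, more similar patterns to each other than to either gamma member. As a description without a test, the mean Pearson r of log2 levels over the 21 clusters of cells and the 16 of nuclei, which share libraries and differ in depth, was 0.69 for GABRA2 with GABRB1, 0.58 for GABRA2 with GABRB2 and 0.61 for GABRB1 with GABRB2. GABRG3 gave between -0.17 and 0.32 with the other members, and GABRG1 between 0.13 and 0.28. The GABRG1 values differed between the libraries, from -0.30 to 0.19 in cells and from 0.06 to 0.72 in nuclei, where its r with GABRB2 (0.52) was as high as that of GABRA2 with GABRB2 (0.50). Among 10194 genes ranked, the patterns most like that of GABRA2 were those of MAPT (0.93), TMEM63C (0.92) and THRA (0.91). Those nearest to GABRB1 were FRMPD4 (0.86), MAP3K21 (0.82) and PPP2R2C (0.81), to GABRB2 SYBU (0.83), FXYD6 (0.82) and NAV3 (0.82), and to GABRG3 KLHL23 (0.73), GRIP1 (0.72) and MAP1B (0.71). The genes nearest to GABRA4, GABRA5 and GABRG1 are not listed, because these members had few counts. In cells the highest level of GABRA4 and of GABRA5 was 0.177, from 1 count each in a cluster of 42 cells. The r values above that involve GABRA4, GABRA5 or GABRG1 rest on few counts as well.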

How the data were processed

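Split-seq combines barcodes over rounds of wells, so that each combination marks a cell or a nucleus. Per the labels and the study's methods, reads were demultiplexed with demuxFQ and processed with the Parse Biosciences pipeline (spipe) on GRCh38, per sub-library. The values the authors deposited are raw counts of transcripts per barcode and gene, not normalized, for all barcodes and with background RNA included. Kept barcodes ranged up to 648550 transcripts in cells and 138422 in nuclei, with quartiles of 1427 and 7223.75 in cells and 2275 and 6191.25 in nuclei. Spread between sub-libraries (8 in the library of cells, 2 in that of nuclei) is technical.

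Counts were scaled to 10000 transcripts, log transformed, and clustered with scanpy 1.11.5 (Python 3.11.15) on 2000 variable genes without the 19 subunit genes, 30 components, 15 neighbours and Leiden resolution 1. A cluster was named where at least 3 markers of a cell type were 1.5-fold above the other barcodes and detected in 25% of its own. The name was withheld where another type had more markers among the genes most raised in the cluster. It was also withheld from shallow clusters with none of their own type there. Cluster 0 of the cells (1005 barcodes) met the marker rule for excitatory neurons but stayed unnamed. Its levels were 0.350 for GABRA2, 0.122 for GABRB1 and 0.132 for GABRB2. Levels carry exact Poisson intervals, shares Clopper-Pearson intervals and ratios exact conditional intervals (scipy 1.17.1). The shares of all genes and the counts within lists took only genes with at least 20 counts over all kept barcodes of a library. Ratios were taken over genes with more than 3 counts in at least 1 of the classes, and a class with 0 counts was set to 3. In a class with few transcripts this can call a gene without a count higher than in a larger class. It can thus raise the shares of all genes given as higher in GAD/DLX-positive or Cajal-Retzius-like nuclei. No test was possible with 1 sample per library. Doublets were scored with Scrublet, which marked 0 barcodes in either library and so had not worked as a caller, and the barcodes with the highest scores (1009 cells and 427 nuclei) were left out in an alternative. On simulated counts 4-fold changes were recovered in 100% (higher) and 98.0% (lower) of altered genes for excitatory neuron-like against progenitor-like cells (27263 genes), and in 100% and 99.0% in nuclei (19384 genes). These were Poisson draws from 1 pooled profile, without spread between wells, clusters or barcodes. A 4-fold change was nearly bound to pass the 2-fold limit, so this checks the calculation only. Genes had at least 20 progenitor-like counts, which leaves out GABRA4 in nuclei (15 counts).

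Named genes were the 7 members, 19 genes of GABA signalling and, per member, the 3 genes with the highest mean correlation over clusters, computed on log2(level + 0.1) for genes of at least 0.1 per 10000. The members and lists were chosen with earlier results of these data known. Some genes of these lists are counted but not reported here by name.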

Additional observations from a re-analysis of the deposited data

Results flagged for a closer look

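GABRB1 was flagged because its difference between GAD/DLX-positive and excitatory neuron-like barcodes had opposite signs in the libraries. The log2 ratio was 0.24 in cells, where the levels were 0.327 and 0.277, and -1.10 in nuclei, where they were 0.548 and 1.18. The difference between the libraries was not tested. The libraries differ in molecule source, organoid age and treatment, and the GAD/DLX-positive cells had a median depth of 49801 transcripts against 4997.5 for the nuclei, and the part of each in the result cannot be told apart.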

How the results depend on the processing

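No paired analysis was possible because each library is 1 sample and no replicate numbers link groups. Leaving out replicates could not be done for the same reason. The counts of members at least 2-fold apart moved with the settings in both libraries, and 7 of the alternatives were chosen after seeing the data. The counts in cells were 0 or 1, where any change counts as moved, so the libraries cannot be ranked by stability. For excitatory neuron-like above progenitor-like cells, the count of 1 became 3 with a 1.5-fold limit. It became 2 with Leiden resolution 0.5, with at least 6 markers per cluster, with subunit genes kept for clustering, without barcodes over 20000 transcripts and without the largest well, and 0 with resolution 2, with another seed and above 5000 transcripts. For lower in excitatory neuron-like cells, the count of 0 became 1 with the 1.5-fold limit, resolution 0.5 or 2, at least 6 markers, doublet scores, above 2000 or 5000 transcripts and another seed. In nuclei the count of 5 higher became 1 when clustering followed removal of the highest doublet scores, because cluster 1 then lost its name, and stayed at 5 when the same barcodes were removed from the reported clusters. The count of 1 lower in nuclei became 2 with that reclustering, and 0 with classes from each barcode's own markers, above 5000 transcripts and without the largest well.

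For GAD/DLX-positive above excitatory neuron-like cells, the count of 0 became 4 with own markers, 2 without barcodes over 20000 transcripts, and 1 with the 1.5-fold limit, resolution 2, at most 10% mitochondrial transcripts, doublet scores, above 2000 transcripts or another seed. In nuclei the count of 0 became 3 with own markers, 2 with doublet scores, and 1 with the GAD1 and GAD2 cluster, resolution 2 or without barcodes over 20000 transcripts. For lower, the count of 0 in cells became 1 with the 1.5-fold limit or own markers, and the 4 in nuclei became 1 with resolution 2 or doublet scores, and 2 with at least 3 GAD/DLX markers, at most 10% mitochondrial transcripts, the mean over barcodes, above 5000 transcripts or without barcodes over 20000 transcripts. Against progenitor-like cells the count of 1 higher became 5 with own markers or without barcodes over 20000 transcripts, 3 with the 1.5-fold limit, 2 with resolution 0.5 or the mean over barcodes, and 0 with at most 10% mitochondrial transcripts. The 4 higher in nuclei stayed within 1.5 times, and the 1 lower became 2 with own markers and 0 with at least 3 markers or without barcodes over 20000 transcripts. The share of barcodes with all 3 kinds of subunit was 0.0347% in cells and 0.197% in nuclei, and became 4.48% and 3.68% without thinning, 0.276% and 0.888% with thinning to 2000 transcripts, and 0.311% in nuclei above 5000 transcripts. Other than the reclustering named above and the fewer barcodes or deeper draws of a setting, the cause was not tested. Depth limits GABRA4, GABRA5 and GABRG1, which had 15 to 83 counts per class in excitatory neuron-like and progenitor-like nuclei.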
